A study of Mus musculus with 10 samples.

Results

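The genes described here encode the proteins of the cytosolic ribosome, followed in single mouse oocytes matured with or without TubA. They were chosen by symbol alone: protein-coding genes named Rpl or Rps with a digit, together with Rplp0, Rplp1, Rplp2 and Rpsa, and without pseudogene symbols and the Rps6k kinases. This gave 86 members of 35580 listed genes, 52 named for the large and 34 for the small subunit. Of these, 75 averaged 1 TPM or more over the 10 libraries and were tested. The rule also takes in Rps19bp1, which encodes a protein that binds RPS19 and is no part of the ribosome. It leaves out Fau and Rack1, which do encode ribosomal proteins.

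The libraries were 5 labelled TubA and 5 labelled control, each from an ICR oocyte at metaphase II (MII). In both groups germinal vesicle oocytes from ovaries of mice aged 6 to 8 weeks matured in M16 medium for 16 h at 37 °C in 5% CO2, and the treated ones had TubA at 0.1 µg/mL for those 16 h. The labels give only the short name TubA, which commonly stands for tubastatin A, a drug that blocks HDAC6 and so the removal of acetyl groups from tubulin. Each oocyte was amplified on its own by Smart-seq2, which copies mRNA over its full length starting from the poly(A) tail. The labels name no animal or culture, so a p-value here rests on nothing but the spread among oocyte libraries, and part of that spread may be technical. Values are TPM, a transcript abundance per length scaled to 1000000 in every library. It keeps no depth, so the depth is unknown and no counting interval is given.

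A cytosolic ribosome holds a set of proteins in fixed proportion to its RNA, and most somatic cells keep the corresponding mRNAs among their most abundant. Most of these mRNAs begin with a terminal oligopyrimidine (TOP) tract, through which mTOR signalling and the protein LARP1 set their translation and stability. A fully grown oocyte hardly transcribes, and it matures on ribosomes and mRNAs stored during growth, many of which lose their poly(A) tail on the way to MII. A loss of tail and a loss of mRNA cannot be told apart by a method that starts from the tail. Ribosomal protein genes have also left many processed pseudogenes in the mouse genome, some of them nearly identical to the parent gene. The levels of such copies are therefore given beside those of the parent gene.

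To show how close these copies are, stretches of 60 bases from the coding sequence of 4 members are set above the same stretch of a copy, with a base that differs between gene and copy in capitals. They were taken from the GENCODE M21 transcripts, whose assembly GRCm38 is mm10. Rps2 is shown at chr17:24720626-24720685 on the plus strand, and Rps2-ps13 at chrX:52898857-52898916 on the plus strand. Rps28 is shown at chr17:33823226-33823285 on the minus strand, and Gm10263 at chr13:73317986-73318045 on the plus strand. Rpl34 is shown at chr3:130729055-130729114 on the minus strand, and Rpl34-ps1 at chr6:71124711-71124770 on the plus strand. Rpl10 is shown at chrX:74271800-74271859 on the plus strand, and Rpl10-ps1 at chr2:105554704-105554763 on the minus strand.
Rps2: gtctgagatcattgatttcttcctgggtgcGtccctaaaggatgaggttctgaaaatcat
Rps2-ps13: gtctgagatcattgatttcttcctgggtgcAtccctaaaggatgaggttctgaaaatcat
Rps28: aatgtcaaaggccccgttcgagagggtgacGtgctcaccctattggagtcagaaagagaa
Gm10263: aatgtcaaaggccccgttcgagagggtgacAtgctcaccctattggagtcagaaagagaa
Rpl34: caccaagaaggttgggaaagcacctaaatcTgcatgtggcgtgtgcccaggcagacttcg
Rpl34-ps1: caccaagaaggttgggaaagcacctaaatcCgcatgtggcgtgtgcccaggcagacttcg
Rpl10: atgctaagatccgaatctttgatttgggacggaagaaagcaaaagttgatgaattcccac
Rpl10-ps1: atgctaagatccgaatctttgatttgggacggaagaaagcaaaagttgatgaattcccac
Over the whole coding sequence, with gaps allowed, Rps2 and Rps2-ps13 aligned over 882 of 906 bases and differed at 7 of them, beside 1 gap of 13 bases. Rps28 and Gm10263 differ at 1 of 207 bases and Rpl34 and Rpl34-ps1 at 2 of 353. Rpl10 and Rpl10-ps1 do not differ at any of 642 coding bases.

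As listed, most ribosomal protein genes were below the typical level of the genes tested. Their median level was 6.52 TPM over the 75 tested members, against 11.8 TPM over all 11682 genes tested. A mean of 100 TPM was reached by 5 of the 75, or 6.67%, against 13.7% of all genes tested. Summed with the copies described below, the members had a median of 8.43 TPM, and 8 of 75, or 10.7%, reached 100 TPM. Rpl5 is among these 8, with a mean of 74.1 TPM as listed. Its sum holds the pseudogene Gm15500, at 9.29 TPM, and also Fam69a, an overlapping protein-coding gene at 48.9 TPM. Another view is the sum, which is a share of the library and not an absolute amount. All 86 members together held 1847, 1613, 2636, 2484 and 1808 TPM in TubA libraries 1 to 5, against 1732, 2540.0, 1702, 2569 and 2416 TPM in control libraries 1 to 5. That is 0.208 ± 0.0452% of the library with TubA and 0.219 ± 0.0438% in control (mean ± SD, n = 5 each, as for every such pair that follows), and the ranges overlapped.

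The level was held by few genes. Rps27l, a relative of Rps27 whose human counterpart is a target of p53, made up 25.9% of the members' summed mean, and the 10 most abundant members made up 68.4%. Rps27l (chr9, 66946086 to 66949516) stood at 377, 591, 909, 320 and 592 TPM in TubA libraries, against 668, 556, 316, 547 and 648 TPM in control libraries. The groups overlapped widely, with a log2 difference of -0.02 (95% interval -0.66 to 0.61). Rps27 itself, a zinc-binding protein of the small subunit, had a mean of only 3.61 TPM over all libraries. Rps27l was higher than Rps27 in 10 of 10 libraries, and the ratio of their means was 153.

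**Figure D1:**
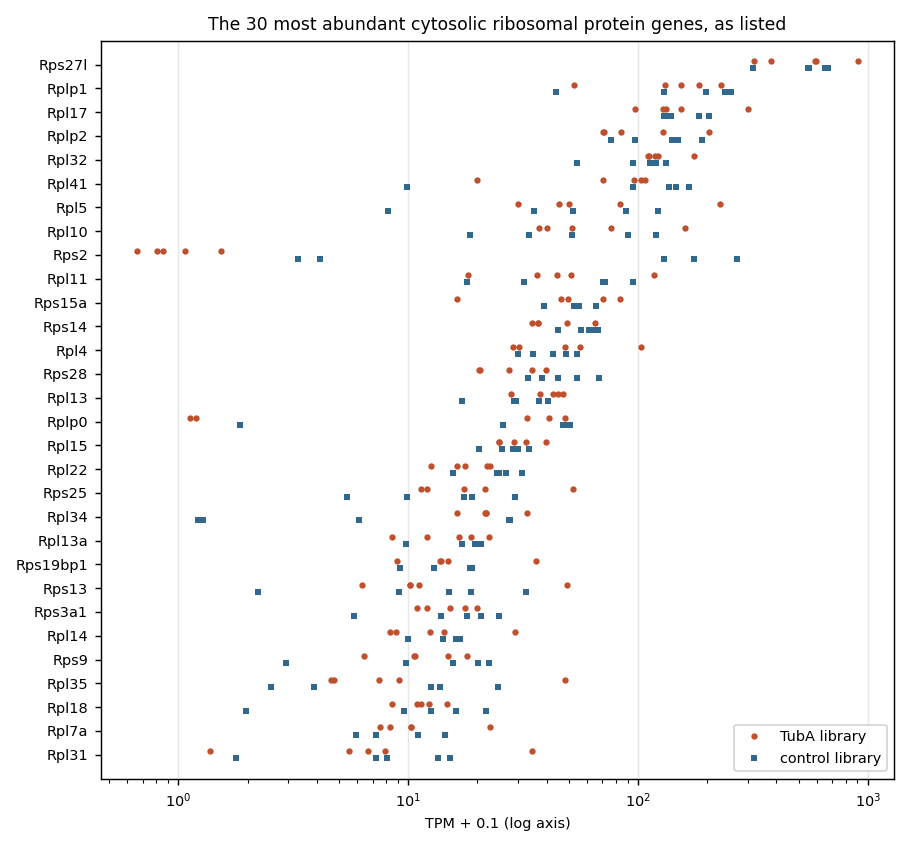
TPM of the 30 members with a mean of at least 10 TPM in each library, on a log axis after adding 0.1, with TubA libraries as circles above control libraries as squares. Rps27l stands apart from the rest, the groups overlap in every gene shown but Rps2, and Rps2, Rplp0 and Rpl34 each split into high and low libraries.

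Other members that have a close relative were compared with it. Rpl7l1, a relative of Rpl7, stood above it in 10 of 10 libraries, with a ratio of means of 5.03, although both were low. Rpl22 exceeded its relative Rpl22l1 in 10 of 10 libraries with a ratio of 4.27. Rpl36al exceeded the X-linked Rpl36a in 9 of 10 libraries with a ratio of 3.09. Rpl39 and Rpl39l did not differ in a steady direction, with Rpl39 higher in 6 of 10 libraries. Rpl10l and Rpl39l are known from testis and Rpl3l from muscle. Rpl10l was at 0.0422 ± 0.0635 TPM with TubA and 0.0563 ± 0.0931 TPM in control, and Rpl3l was listed at 0 in all 10 libraries.

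The stalk of the large subunit, which recruits translation factors, is built from Rplp0 and several copies of the acidic proteins Rplp1 and Rplp2. Rplp1 stood at 150 ± 66.1 TPM with TubA and 173 ± 86.6 TPM in control, and Rplp2 at 111 ± 56.3 TPM with TubA and 130 ± 44.96 TPM in control. Their base, Rplp0 (chr5, 115559467 to 115563727), was far less even. It stood at 1.02, 1.10, 41.0, 47.8 and 32.7 TPM in TubA libraries 1 to 5, against 47.3, 25.8, 1.74, 48.0 and 50.4 TPM in control libraries 1 to 5. Thus 3 libraries, TubA 1, TubA 2 and control 3, were at or below 1.74 TPM and the other 7 were at or above 25.8 TPM. The log2 difference of -0.99 (95% interval -3.36 to 1.39) did not pass the test. Summed with its 4 copies from 20% of shared words, Rplp0 had 4.89, 2.35 and 3.68 TPM in those 3 libraries.

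Among the other abundant members of the large subunit, Rpl17, which lies near the exit of the nascent chain, stood at 162 ± 80.0 TPM with TubA and 158 ± 34.4 TPM in control. Rpl32 stood at 127 ± 26.9 TPM with TubA and 103 ± 30.2 TPM in control. Rpl41, a very short basic peptide, varied widely. It had 70.4, 19.8, 96.0, 107 and 103 TPM with TubA, against 9.80, 136, 94.8, 166 and 147 TPM in control. Its lowest values were control 1 and TubA 2, and the groups overlapped. Rpl5 and Rpl11, which together with a small ribosomal RNA hold back the p53 regulator Mdm2, had log2 differences of 0.58 and -0.13. Rpl5 stood at 87.1 ± 80.5 TPM with TubA and 61.1 ± 44.9 TPM in control, and Rpl11 at 53.4 ± 37.9 TPM with TubA and 57.4 ± 31.7 TPM in control. Rpl38, known from the mouse mutant Tail short for its part in Hox mRNA translation, was low at 2.60 ± 2.54 TPM with TubA and 3.64 ± 2.70 TPM in control.

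In the small subunit, Rps15a stood at 53.0 ± 25.6 TPM with TubA and 55.6 ± 11.1 TPM in control, and Rps14, of the platform, at 44.2 ± 12.8 TPM with TubA and 58.6 ± 8.81 TPM in control. Members with known roles beside these were low. Rps6, the substrate of S6 kinase, stood at 7.09 ± 6.14 TPM with TubA and 3.97 ± 2.45 TPM in control. Rps3, at the entry of the mRNA channel, stood at 7.70 ± 2.57 TPM with TubA and 9.17 ± 4.17 TPM in control. Rps27a, which encodes a fusion with ubiquitin, stood at 7.37 ± 6.38 TPM with TubA and 8.11 ± 4.09 TPM in control. Rpsa, also known as a laminin receptor, stood at 2.77 ± 1.47 TPM with TubA and 3.04 ± 1.20 TPM in control. Rps19 and Rps26, both mutated in Diamond-Blackfan anaemia in humans, averaged 2.53 and 5.02 TPM with TubA and 2.44 and 4.27 TPM in control. None of these members passed the test.

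The 11 members under the filter included Rps15, Rpl9, Rpl8, Rps18, Rpl28, Rpl12, Rpl10l, Rps27rt and Rpl3l. Several of them are core proteins without which no ribosome is built, so a low TPM for a gene as listed is not the level of its protein. Rpl12, for one, had a mean of 0.272 TPM, against 2.91 TPM for its copy Gm10275. Of the members' TPM, 95.8% lay in transcripts annotated as protein-coding. Rpl14 was an exception, with 58.1% of its TPM in a transcript annotated for nonsense-mediated decay.

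Several members had copies at a higher level than their own. Of the 86 members, 47 shared at least 20% of their sequence words of 31 bases with another listed gene. At that limit 159 annotated genes outside the members were copies of 43 members, 151 of them pseudogenes, and 100 of the copies were above 0 in some library. Of the copies, 4 overlapped the locus of their member, among them the protein-coding Fam69a with Rpl5. The copies of 8 members exceeded the member itself. Rpl10, which joins the large subunit late in its assembly, had a mean of 67.7 TPM, against 183 TPM for the identical Rpl10-ps1 (chr2). Rps23, at the decoding centre, had a mean of 1.31 TPM, against 68.9 TPM for Gm10689 (chr8). With copies added, the members held 0.304 ± 0.0601% of the library with TubA and 0.309 ± 0.0776% in control.

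TubA was then compared with control for each member as listed. None of the 75 members passed the threshold (limma with Benjamini-Hochberg adjustment over all 11682 genes, lowest adjusted p of a member 0.9999), where 0.00856% of all genes did. At an unadjusted p under 0.05 there were 3 members, or 4%, against 2.51% of all genes tested. These were Rps2, Rps28 and Rpl34. The log2 difference was positive in 33 members and negative in 42, or 56%, against 48.6% of all genes tested. Its median was -0.04, against 0.01 over all genes tested. The groups did not overlap in 1 member, Rps2, or 1.33%, against 0.454% of all genes tested. The count of 3 was 1 without control 2 and 5 without control 4, and the count of 1 without overlap was 2 without control 1 and 2 without control 5.

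These tests leave room for differences of moderate size. The 95% interval of the difference in log2(TPM + 1) lay within 1 unit either way for 25 of 75 members, or 33.3%, against 57% of all genes tested. For members of a few TPM the added 1 shrinks the difference, so this does not exclude a 2-fold change in their TPM. The standard error of the difference had a median of 0.43 log2 units over the members. The members as listed were also the more uneven from library to library, with a median SD of 0.70 on the log2(TPM + 1) scale over the 10 libraries, against 0.51 over all genes tested. With copies summed it was 0.65. The members were also lower in level than all genes tested, and genes of like level were not compared.

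**Figure D2:**
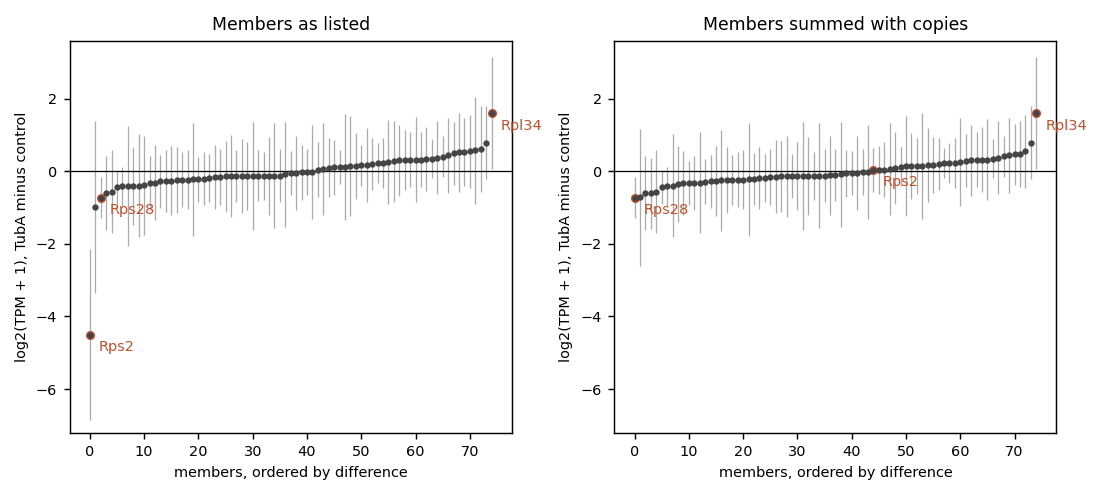
Log2 difference of TubA minus control with its 95% interval for the 75 members tested, in order of size, for members as listed on the left and summed with copies on the right. The 3 members named are those at an unadjusted p under 0.05 as listed, and Rps2 moves to 0.04 once its copies are added.

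Rps2, a protein near the entry of the mRNA channel, gave the largest difference. Rps2 (chr17, 24718116 to 24721929) stood at 0.560, 0.709, 0.753, 1.43 and 0.972 TPM in TubA libraries 1 to 5, against 130, 271, 176, 3.22 and 4.03 TPM in control libraries 1 to 5. All 5 TubA values were under the lowest control value, and controls 1 to 3 lay far above controls 4 and 5. The log2 difference was -4.50 ± 1.09 (SE), and the exact two-sided permutation p was 0.0079, the smallest that 5 libraries against 5 can give. Since Rps2 was singled out among 75 members by these values, that p is a description of its lack of overlap.

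In every library at least 1 copy of Rps2 stood above 100 TPM. Rps2-ps10 (chr18, 61259008 to 61259972) stood at 446, 391, 15.8, 12.4 and 8.32 TPM in TubA libraries 1 to 5, against 135, 328, 136, 15.04 and 7.76 TPM in control libraries 1 to 5. Rps2-ps13 (chrX, 52898588 to 52899469) stood at 1.20, 0.581, 588, 556 and 398 TPM in TubA libraries, against 8.22, 7.46, 2.20, 771 and 517 TPM in control libraries. Rps2-ps10 was thus the higher copy in TubA 1 and 2 and controls 1 to 3, and Rps2-ps13 in TubA 3 to 5 and controls 4 and 5. Rps2 itself was above 100 TPM only in the controls of the first of these sets. Summed with its 16 copies, Rps2 stood at 448, 393, 605, 571 and 409 TPM with TubA, against 274, 607, 316, 791 and 529 TPM in control. The groups then overlapped, and the log2 difference was 0.04 ± 0.28 (SE, 95% interval -0.57 to 0.64).

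**Figure D3:**
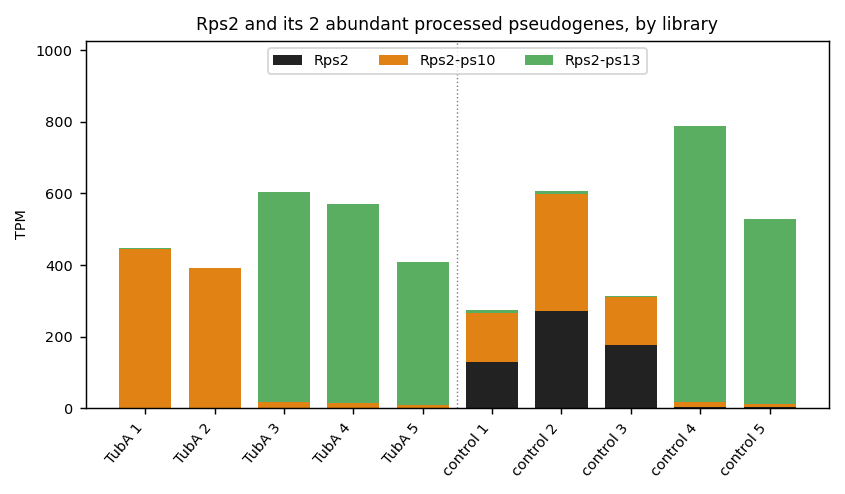
Stacked TPM of Rps2, Rps2-ps10 and Rps2-ps13 in each TubA library on the left and each control library on the right. The bars reach similar heights in both groups while the gene that holds them changes, and Rps2 is visible only in controls 1, 2 and 3.

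The split between these copies matched a division of the libraries made from all genes tested. Complete-linkage clustering of the correlations between libraries was cut into 2 sets, a number fixed beforehand. It placed TubA 1 and 2 with controls 1 to 3 in 1 set, and TubA 3 to 5 with controls 4 and 5 in the other. How distinct the sets are was not tested. The sets were found from the same values and are no label of the submitters. Within the first set Rps2 as listed was at most 0.709 TPM with TubA and at least 130 TPM in control. Within the other it was at most 1.43 TPM with TubA and at least 3.22 TPM in control. When the fit included the set, the difference was -4.0 for Rps2 as listed and -0.07 for its sum with copies.

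Rps28 and Rpl34 stayed at an unadjusted p under 0.05 with copies from 20% of shared words added, since neither has a copy at that limit. Rps28, a small-subunit protein (chr17, 33819027 to 33824562), stood at 39.6, 20.5, 20.3, 27.4 and 34.3 TPM with TubA, against 33.0, 67.2, 37.9, 44.6 and 54.3 TPM in control. Most TubA libraries lay below most controls, with TubA 1 and 5 inside the range of control. The log2 difference was -0.72 ± 0.26 (SE, limma, unadjusted p = 0.0169), and p was 0.0503 without control 2. Rpl34, of the large subunit (chr3, 130726831 to 130730398), stood at 16.2, 21.7, 32.7, 21.8 and 21.4 TPM with TubA, against 1.18, 6.03, 1.12, 27.6 and 27.3 TPM in control. The TubA libraries were even, while the controls split into low (1 to 3) and high (4 and 5) ones along the same sets as above. The log2 difference was 1.60 ± 0.71 (SE, limma, unadjusted p = 0.0439), and p was 0.113 without control 1 and 0.121 without control 3. Leaving out TubA 1, 2, 3, 4 or 5 also took its p above 0.05, with values from 0.0523 to 0.0876. Without control 4 or control 5 the difference was 2.07, with an unadjusted limma p of 0.0091 and 0.0099.

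Both genes nevertheless have a near-identical partner, shown above, that lies under the 20% limit, with 11.5% of the words of Rps28 and 9.54% of those of Rpl34 over all annotated transcripts of the gene. Gm10263, the partner of Rps28, stood at 221, 207, 105, 80.8 and 30.8 TPM with TubA, against 132, 187, 151, 12.2 and 15.2 TPM in control. Rpl34-ps1 stood at 32.0, 38.2, 33.1, 28.9 and 33.3 TPM with TubA, against 19.5, 57.8, 29.2, 43.6 and 49.2 TPM in control. When genes sharing at least 5% of words were added, the log2 difference became 0.15 for Rps28 and 0.24 for Rpl34. No member was then at an unadjusted p under 0.05. That limit also takes in protein-coding genes that are no copies, such as Med21 (mean 386 TPM) with Rps26 (mean 4.64 TPM). Some of these sums are therefore mostly the level of another gene, and the count of 0 does not speak for members with their copies.

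**Figure D4:**
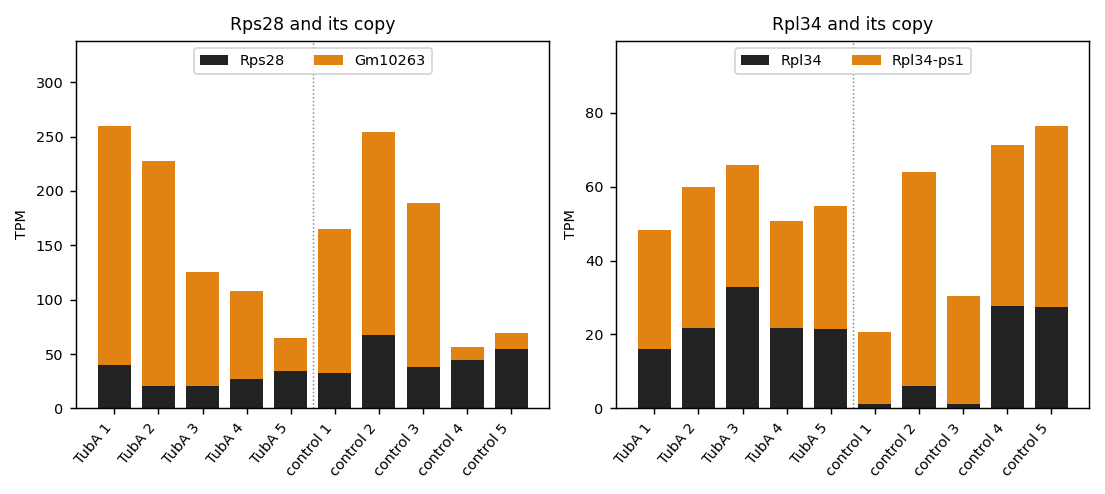
Stacked TPM of Rps28 with Gm10263 and of Rpl34 with Rpl34-ps1 in each TubA library on the left and each control library on the right. Rps28 differs less between libraries than the copy above it, and Rpl34 is nearly missing in controls 1 and 3.

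With copies summed at the 20% limit, 0 of 75 members passed the threshold (limma), against 0.00858% of all 11660 rows tested, and 2, or 2.67%, were at an unadjusted p under 0.05, against 2.5% of all rows. The groups overlapped in every member, against 0.446% without overlap among all rows. The difference was positive in 31 members and negative in 44, or 58.7%, against 48.6% of all rows tested, with a median of -0.10. The count of 2 was 1 without TubA 1, 2, 3 or 5 and 0 without control 2, and the count of 0 without overlap was 1 without TubA 2 and 1 without control 1. The members next in order of p, as listed, were Rps14, Rpl21, Rpl22, Rpl13 and Rpl32. Their unadjusted p ran from 0.0748 to 0.183 and their log2 differences from -0.43 to 0.79. Rpl3, Rps23 and Rpl36a were among those that followed, with differences from 0.50 to 0.55, and so were Rpl23a and Rps6 with copies summed, at -0.60 and 0.48.

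The members deviated together in single libraries more than between the groups. TubA 4 was the highest of the 10 libraries in 31 of 75 members, or 41.3%, against 21% of all genes tested. Its median deviation from each member's mean was 0.71 log2 units, against 0.10 over all genes. Control 1 was the lowest library in 25 members, or 33.3%, against 21.6% of all genes, with a median deviation of -0.56, against -0.18. TubA 2 lay at -0.43, control 4 at 0.40 and control 5 at 0.31. TubA 4 was not high throughout, since Rps15a stood at 16.2 TPM there, its lowest value, and Rps27l at 320 TPM. The median difference between groups turned with single libraries, and was -0.22 without TubA 4 and 0.13 without TubA 2 for members as listed.

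**Figure D5:**
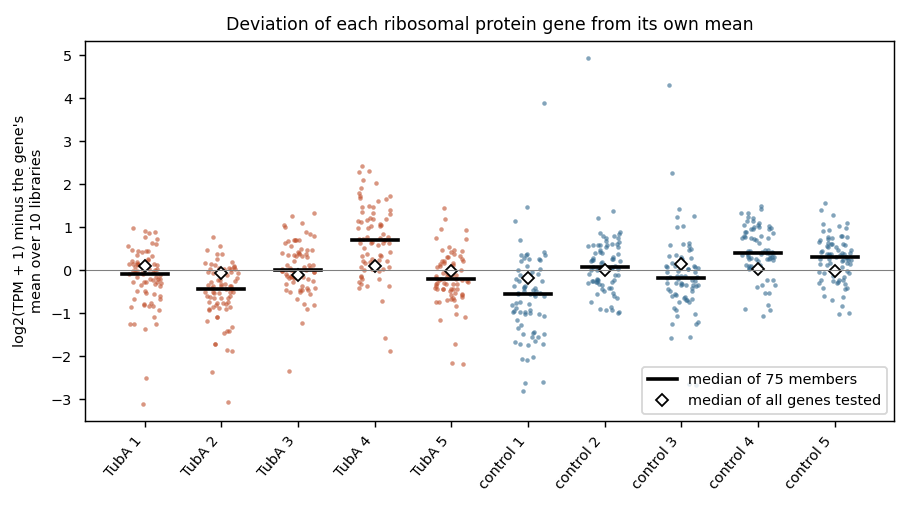
Deviation of each of the 75 members from its own mean over 10 libraries, on the log2(TPM + 1) scale, with TubA libraries left of control libraries. Bars mark the members' median and diamonds that of all genes tested, and the bars of TubA 4 (0.71) and control 1 (-0.56) lie farthest from 0.

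The 2 libraries at the ends of this pattern also stood at the ends of other measures, though the rest did not follow it. TubA 4 had the most genes at or above 1 TPM, 11717, and control 1 the fewest, 10536. Control 3 came next to TubA 4 with 11697 genes, while its median deviation for the members was -0.18. TubA 3 had 10855 genes and the highest sum of the members. The 12 oocyte markers summed to between 30093 and 39944 TPM in TubA libraries, against 28681 to 39575 TPM in control libraries. The 12 markers of cumulus and granulosa cells summed to between 13.4 and 25.5 TPM with TubA, against 16.0 to 22.4 TPM in control, and their defining genes Foxl2 and Amh were listed at 0 in all libraries. Most of that sum was Cyp19a1 and Nr5a2, which averaged 11.6 and 5.81 TPM over all libraries and were above 0 in each. The 10 markers of theca and stroma summed to between 6.66 and 17.2 TPM with TubA, against 5.28 to 22.3 TPM in control. The 9 markers of blood, immune and endothelial cells summed to between 41.9 and 82.8 TPM with TubA, against 30.7 to 79.9 TPM in control. Their highest sum was in TubA 4, the next in control 3 and the lowest in control 1. Most of that span was C1qb, at 54.3 TPM in TubA 4 and 2.91 TPM in control 1. Pecam1, the most abundant of these markers by mean, did not follow it, at 22.7 TPM in TubA 4 and 21.4 TPM in control 1. In control 3 Pecam1 stood at 45.1 TPM and C1qb at 19.7 TPM. Ptprc, Lyz2 and Cdh5 averaged under 1 TPM. The part of these markers in the levels of the ribosomal protein genes was not tested.

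The genes around the ribosomal proteins gave no call either. Fau and Rack1 encode ribosomal proteins outside the symbol rule, Fau as a fusion with a ubiquitin-like part. Rack1, a scaffold on the small subunit, stood at 133 ± 47.2 TPM with TubA and 128 ± 27.0 TPM in control. Fau stood at 31.3 ± 25.5 TPM with TubA and 30.6 ± 15.4 TPM in control. Among 15 tested mRNAs with a TOP tract that encode no ribosomal protein, 0 passed the threshold, 4 differences were positive and 11 negative, and the median was -0.25. At an unadjusted p under 0.05, 3 of the 15 were lower with TubA, against 1.38% of all genes tested, namely the translation factor subunit Eif3k, the poly(A)-binding protein Pabpc1 and the nascent-chain factor Btf3. Btf3 stood at 389 ± 68.7 TPM with TubA and 560 ± 187 TPM in control, and Pabpc1 at 3.69 ± 1.34 TPM with TubA and 7.40 ± 2.91 TPM in control. Copies were looked for only for the members, so these differences are for genes as listed. How copies would change them was not tested.

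In the other lists too, 0 genes passed the threshold (limma), and at an unadjusted p under 0.05 there were 0 of the 16 control genes and 0 of the 13 polymerase genes that follow. Of 16 genes of mTORC1, S6 kinase and LARP1 control, 8 differences were positive and 8 negative, with a median of 0.02. Rheb, the small GTPase that switches mTORC1 on, stood at 732 ± 113 TPM with TubA and 789 ± 124 TPM in control. Of 36 ribosome assembly factors, 15 differences were positive and 21 negative, with a median of -0.06. Nop56, of the small nucleolar ribonucleoproteins, was the single assembly factor at an unadjusted p under 0.05, at 86.6 ± 8.83 TPM with TubA and 129.5 ± 27.7 TPM in control. Sbds, which helps to release a factor from the new large subunit, was far more abundant than most members, at 773 ± 85.7 TPM with TubA and 758 ± 116 TPM in control. Of 13 genes of RNA polymerase I and its factors, 10 differences were positive and 3 negative, with a median of 0.16. Taf1a, a selectivity factor of that polymerase, stood at 382 ± 102 TPM with TubA and 373 ± 23.0 TPM in control.

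The pyrimidine tract was looked for at the start sites. The motif CTTTC was searched on the sense strand from 15 bases before to 20 after the annotated start in the RefSeq promoter table (GRCm38.p6), where 66 members had an entry. It was found in 17 of them, or 25.8%, against 4.57% of 27025 promoters. On either strand it was found in 20, or 30.3%, against 8.59%. The members' median level was 5.49 TPM with the motif and 5.53 TPM without it. As examples, 30 bases from 15 before the start are shown with the motif in capitals, beside Rps27l, the most abundant member, which has no match there. In Rplp2 the motif begins at the annotated start, while in Rps15a and Rpl13 it lies before it, outside the annotated mRNA. Rplp2 lies at chr7:141447636-141447665 on the plus strand, Rps15a at chr7:118116133-118116162 on the minus strand, Rpl13 at chr8:123102335-123102364 on the plus strand and Rps27l at chr9:66946071-66946100 on the plus strand.
Rplp2: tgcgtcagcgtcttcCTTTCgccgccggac
Rps15a: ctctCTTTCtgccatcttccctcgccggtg
Rpl13: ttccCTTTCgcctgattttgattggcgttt
Rps27l: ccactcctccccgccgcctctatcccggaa
A match describes these letters only, and its absence says nothing of the factor that reads such tracts.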

How the data were processed

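The deposited files hold TPM per Ensembl transcript for 10 libraries. The unit was read from the values, which sum to 1000000 in each. Per the submitters' processing notes, reads were handled with Bowtie 0.12.2 among other tools, on mm10. Not given in the sources used here are the abundance program, the annotation release and the use of strand. Of 115270 transcripts, 113580 matched GENCODE M21 and were summed to genes; the rest held 0.421% to 0.542% of TPM and were left out.

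Each gene averaging 1 TPM or more entered limma 3.58.1, run in R 4.3.3 on log2(TPM + 1) values with trend and robust moderation, without covariates, and Benjamini-Hochberg adjustment at 0.05 over all genes tested. A difference is the TubA mean minus the control mean of these log2 values, and the added 1 shrinks it for low genes. A second table of 11660 rows replaced each member by its sum with copies. A copy was an annotated gene outside the members sharing at least 20% of words of 31 bases both ways, given to the member with most shared words. Gene and copy were aligned with Biopython 1.88. The fit was tested on simulated data.

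Members named are the most abundant, those without copies, those of lowest p or without overlap, paralogues and members of known role, with the 2 most abundant of other lists. Genes of other lists at an unadjusted limma p under 0.05, such as Pabpc1 and Nop56, were named for that p. Rpl12, Rpl14, C1qb, Ptprc, Lyz2 and Cdh5 were named after their values were seen. The members and lists were chosen with earlier results of these data known. Alternatives were pseudocounts, filters, scalings, library weights, a replicate block, the library set, other copy limits and leaving out each library. Leaving out copies whose locus overlaps the member was added after seeing the data. Some members are not reported here.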

Additional observations from a re-analysis of the deposited data

Results flagged for a closer look

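Within a group of 5 libraries, a value was singled out when its gap to the next exceeded 0.71 of the group's range. Of 84 groups checked, over 40 named members and the library sums, 13 held such a value. The limit of 0.71 corresponds to 5% only for independent values of normal spread. That was not checked for these TPM, so no chance rate is set beside the 13. TubA 4 gave 10 of the 13, all of them the highest of its group. They were Rpl5 at 227 TPM, Rpl22l1 at 20.4 TPM, Rps27a at 18.6 TPM, Rpl23a at 17.8 TPM, Rps27 at 16.5 TPM, Rps4x at 13.4 TPM, Rps19 at 8.53 TPM, Rps23 at 5.54 TPM, Rpl36a at 5.29 TPM and Rpl7 at 3.32 TPM. The next TubA library had 83.7 TPM for Rpl5 and 2.70 TPM for Rpl22l1. The other 3 values lay in other libraries. Rpl17 stood at 301 TPM in TubA 1, against 154 TPM in the next TubA library. Rpl32 stood at 175 TPM in TubA 3, against 122 TPM in the next. Rpl3 stood at 3.72 TPM in control 5, against 0.743 TPM in the next control library.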

How the results depend on the processing

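No member passed the adjusted threshold under any of the alternatives run, at either level, and the lowest adjusted p of a named member was 0.66, for Rps2 as listed without control 5. With copies summed, the count at an unadjusted p under 0.05 was 2. The count was 1 with a pseudocount of 10, 1 with no filter on low values and 4 with library weights. With genes from 5% of shared words, not all of them copies, it was 0. It ran from 0 to 3 over the fits that leave out a library, and as listed, where it was 3, from 1 to 5. The count without overlap with copies summed was 0, and it was 1 with copies from 50% of shared words, which leaves Rps2 without its copies and at -4.50. Leaving out a library gave 0 to 1 there and 1 to 2 as listed. The median difference ran from -0.24 to 0.13 as listed and from -0.25 to 0.10 with copies summed, so its sign is not fixed. Of 1604 values of named members under alternatives, 1596 stayed within the spread between libraries and 8 moved, among them Rpl21 (-0.47) and Rpsa (0.43) with copies from 5% and Rpl36a (1.51) with a pseudocount of 0.1; the cause was not tested. The sign changed in 131 values, none of them called. With the replicate number as a block, 3 members were at an unadjusted p under 0.05 as listed and 2 with copies summed, and the median was -0.04. The deviations of libraries with the same number correlated between -0.31 and 0.48, so the numbers were not taken to pair them. Leaving out the copies whose locus overlaps the member, chosen after seeing the data, moved none of these counts. TPM keeps no depth, so what depth limits is unknown.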

Other observations

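Rpl37rt, a transcribed pseudogene of Rpl37, was low in the same 3 libraries as Rplp0. It was named after its values were seen. It lies on chromosome 5 (115102923 to 115110268), the chromosome of Rplp0 (115559467 to 115563727). Rpl37rt stood at 0.413, 0.795, 88.7, 52.6 and 59.4 TPM in TubA libraries 1 to 5, against 51.1, 81.1, 1.78, 73.4 and 102 TPM in control libraries 1 to 5. It shares 16.6% of the words of Rpl37, whose mean was 1.97 TPM, and it was not tested against Rplp0.

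Gm4294 and Rpl15-ps3, both copies of Rpl15, were also uneven, while Rpl15 was among the steadiest members. Gm4294 stood at 50.4 TPM in TubA 3, 23.1 TPM in control 1 and 48.5 TPM in control 5, and at or below 0.625 TPM in the other 7 libraries. Rpl15-ps3 stood at 0.877 TPM in control 5 alone and between 26.2 and 77.8 TPM in all other libraries. Rpl15 itself ran from 24.6 to 39.6 TPM with TubA and from 20.3 to 33.4 TPM in control.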
